A study of Mus musculus with 18 samples.

Results

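The kidneys of mice that had a high fat diet and a faecal microbiota transplant labelled AOS (HFD+AOS-FMT) were compared with kidneys labelled control, across all genes. The labels alone chose the libraries: 3 of HFD+AOS-FMT and 3 of control, 6 of the 18 in the series, or 5 where control replicate 3, an outlying library, was left out. All are libraries of total RNA from kidney frozen in liquid nitrogen, from ICR mice, an outbred strain, aged 10 weeks. The transplant group is labelled with a high fat diet (HFD) and with AOS10mg/kg-FMT. FMT is faecal microbiota transplantation, in which gut microbes of donors are passed on. The label does not say whether AOS at 10 mg/kg was given to these mice or to the donors. AOS is used here as the labels give it. The control mice carry no treatment other than that word. Diet, transplant and the AOS label change together in this comparison and cannot be told apart within it, so HFD alone and HFD with a control transplant (HFD+control-FMT), 3 libraries each, stand beside it further on. Nothing in the labels states that each library of a group is a different animal; p-values therefore measure spread among these samples, and that spread may be technical. The sources used here give neither the length of treatment nor the hour of collection, and a difference in that hour between groups cannot be told apart from the treatment.

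Most of the messenger RNA of a kidney comes from the proximal tubule, which takes back filtered solutes, burns fatty acids, makes glucose and conjugates drugs. Kidney cells also run a circadian clock, known for daily rhythms of salt and water handling. In that loop Arntl (BMAL1), paired with Clock or Npas2, switches on the Per, Cry, Nr1d and PAR bZIP genes, and the PER, CRY and REV-ERB proteins then hold Arntl and its partners down, so the arms of the loop peak at opposite times of day.

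Control replicate 3 stood apart from every other library. Across genes it correlated with the other 17 at r = 0.948 to 0.963, against 0.979 to 0.993 among those 17. Its 13 adrenal gland genes summed to 993, against 2.85 to 3.07 in HFD+AOS-FMT, where 5 to 7 of the 13 were listed at 0. Transcripts of testis germ cells split the libraries in another way. The sum of Prm1, Prm2, Tnp1 and Tnp2, which pack sperm DNA, was 26.07 to 37.13 in the 3 control libraries and 0 in all 3 of HFD+AOS-FMT, so what brought them in cannot be told apart from the groups. Kidney markers were present throughout, with none of the 23 proximal tubule genes at 0. Those genes summed to 8508 to 9309 in HFD+AOS-FMT and 6429 to 8564 in control, lowest in control replicate 3. In that library collecting duct genes summed to 616, against 309 and 283 in control replicates 1 and 2. Its intercalated cell genes summed to 711, against 424 and 391. The number of reads is unknown, and a relative depth read from the steps between low values was 0.87 in control replicate 3, 0.916 in control replicate 1 and 0.955 to 1.023 in the others.

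Of 12030 genes tested, 279 (2.32%) differed between HFD+AOS-FMT and control at a limma adjusted p under 0.05, 119 of them higher (0.989%) and 160 lower (1.33%) in the transplant group. Differences are HFD+AOS-FMT minus control on a log2(value + 1) scale, where changes of genes with low values come out too small. Without control replicate 3 the count was 523 (4.35%), with 315 higher (2.62%) and 208 lower (1.73%). The fits shared 218 genes, all with the same direction, which is 78.1% of the first set and 41.7% of the second. Of the 305 genes that passed only without control replicate 3, that library stood inside or beyond the transplant group's range for 234. The groups did not overlap for 1920 genes (16%), or 4022 (33.4%) without control replicate 3. The median difference of all genes was -0.06 with all libraries and 0.02 without control replicate 3. In bulk kidney, fewer cells of a type and less RNA per cell cannot be told apart, which holds for every level given here.

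These counts leaned on single libraries. With quantile normalization 395 genes passed, 235 higher and 160 lower, a split that leans the other way from 119 and 160. A term for the germ cell transcripts rests on the HFD libraries, since the compared groups do not share that state; with it 1 gene (Rnls) passed, or 11 without control replicate 3, while 277 of the 279 and 520 of the 523 kept their direction. With that term the median difference of the 279 went from 0.46 to 0.54 for the higher genes and from -0.51 to -0.48 for the lower, and that of the 523 from 0.40 to 0.42 and from -0.49 to -0.44. Leaving out 1 of the 6 libraries at a time gave 61, 105 and 73 genes without HFD+AOS-FMT replicates 1, 2 and 3, and 232 and 785 without control replicates 1 and 2. From the fit without control replicate 3, leaving out control replicate 1 as well, so that 1 control library remained, gave 42 genes, leaving out control replicate 2 gave 275, and leaving out HFD+AOS-FMT replicate 3 gave 253. Of the 57 genes chosen for description that passed with all libraries, 17 passed without each of the 6 in turn, among them Hlf, Ppara, Akr1b3, Klk1, Nat8f6, Zfp990, C8a, Col27a1, Atp5e, Cyp4a12b, Ddc and the germ cell genes Ldhc, Oaz3, Prm1, Tnp1 and Tnp2. Of the 70 that passed without control replicate 3, 15 passed without each of the other 5 libraries in turn: Ciart, Per3, Tef, Cry2, Arntl, Npas2, Ppard, Nat8f6, Zfp990, Wee1, Olfm4, Car14, Cpeb3, Herpud1 and Calr.

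**Figure D1:**
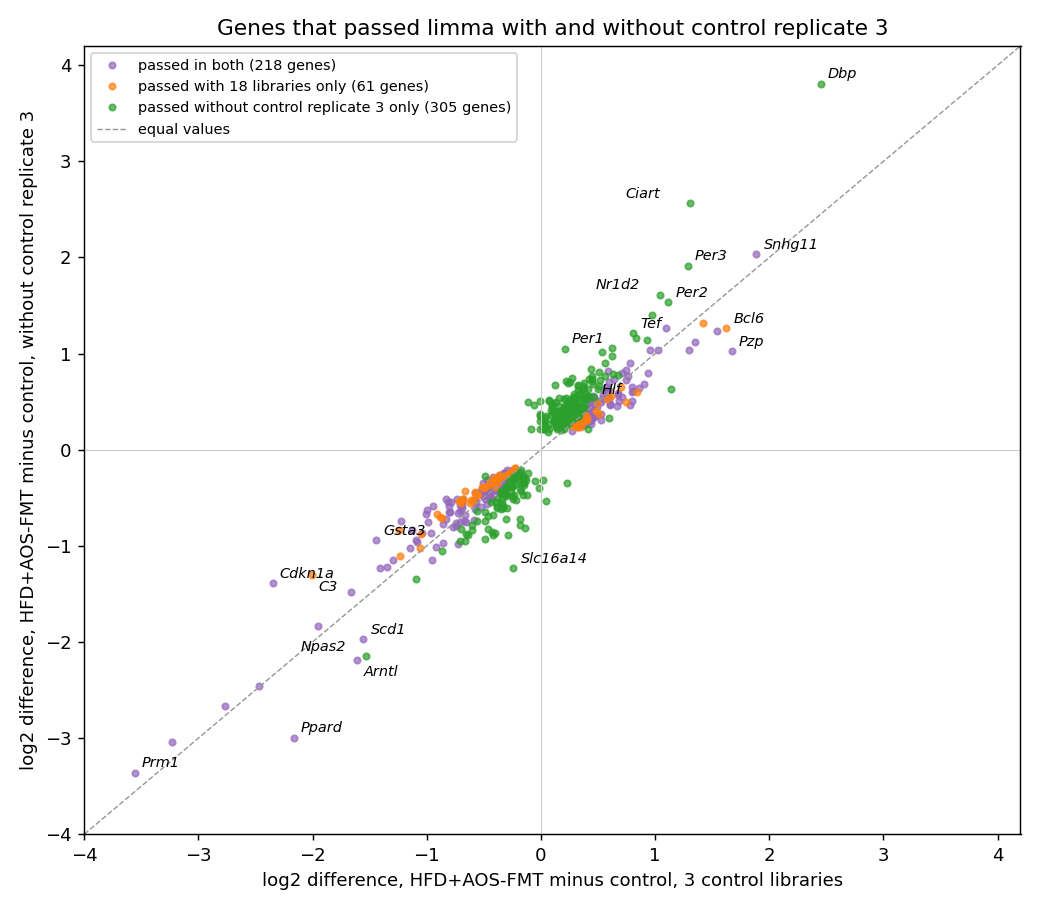
Log2 difference between HFD+AOS-FMT and control for every gene that passed in either fit, with 3 control libraries (x axis) and without control replicate 3 (y axis). Each point is a gene and the dashed line marks equal values; Dbp, Ciart, Per3, Nr1d2, Per2 and Per1 lie above it, at 3.81, 2.56, 1.91, 1.61, 1.53 and 1.05 on the y axis.

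The circadian clock held the 2 largest increases that passed once control replicate 3 was left out, those of Dbp and Ciart. The sequences around the starts of 4 of its genes are shown for the elements through which the loop is known to act, the E-box bound by BMAL1 with CLOCK or NPAS2 and the D-box bound by DBP, TEF and HLF. Each window runs from 250 bases before to 50 bases after a RefSeq start (GRCm38.p6), and capitals mark the E-box CACGTG, which reads the same on both strands, or the D-box TTATGTAA, also searched as TTACATAA. The Ciart window is chr3:95882179-95882478 (minus strand), the Per1 window chr11:69098699-69098998 (plus), the Tef window chr15:81802423-81802722 (plus) and the Per3 window chr4:151044616-151044915 (minus).
Ciart: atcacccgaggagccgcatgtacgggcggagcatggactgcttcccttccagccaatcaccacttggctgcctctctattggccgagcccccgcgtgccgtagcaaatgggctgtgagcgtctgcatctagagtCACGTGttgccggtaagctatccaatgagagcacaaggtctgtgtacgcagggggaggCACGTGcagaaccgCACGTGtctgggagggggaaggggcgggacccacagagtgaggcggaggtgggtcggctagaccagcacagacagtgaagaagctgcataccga
Per1: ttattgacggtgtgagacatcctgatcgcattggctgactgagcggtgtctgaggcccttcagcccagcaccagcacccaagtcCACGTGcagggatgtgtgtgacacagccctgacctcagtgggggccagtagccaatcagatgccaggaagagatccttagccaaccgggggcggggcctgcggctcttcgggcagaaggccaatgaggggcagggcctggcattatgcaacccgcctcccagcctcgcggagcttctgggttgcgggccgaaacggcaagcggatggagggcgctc
Tef: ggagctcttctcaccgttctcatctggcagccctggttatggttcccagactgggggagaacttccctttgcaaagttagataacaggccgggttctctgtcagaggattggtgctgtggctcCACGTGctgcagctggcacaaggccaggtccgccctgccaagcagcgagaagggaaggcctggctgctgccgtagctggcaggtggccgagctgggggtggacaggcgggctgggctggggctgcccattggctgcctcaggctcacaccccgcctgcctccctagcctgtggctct
Per3: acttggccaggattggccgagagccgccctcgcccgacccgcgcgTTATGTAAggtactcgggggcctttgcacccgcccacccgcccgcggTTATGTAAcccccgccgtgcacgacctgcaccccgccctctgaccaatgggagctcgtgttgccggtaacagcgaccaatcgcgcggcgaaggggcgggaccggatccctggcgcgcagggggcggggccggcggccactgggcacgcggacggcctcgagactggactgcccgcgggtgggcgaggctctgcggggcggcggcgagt
Ciart held 3 E-boxes, at -116, -58 and -44 from the start, this Per1 window held 1 at -166, where the other Per1 window held 0, and this Tef window 1 at -127, and Per3 held D-boxes at -205 and -158. Windows were found for 16 of the 19 clock genes listed; some genes had more than 1 window, 21 in all. An E-box stood in 6 of the 21 windows (of Ciart, Per1, Tef, Cry1 and Bhlhe41) and a D-box in 1 (of Per3), while 7.15% and 0.938% of 32851 mouse promoter windows of the same 300 bases held them. These are matches of letters, not measured sites.

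With all 18 libraries 2 of 18 clock genes tested passed, Hlf upward and Arntl downward, against 2.32% of all genes. The list's median difference was 0.37, against -0.06 for all genes. Without control replicate 3, 9 were higher (Per1, Per2, Per3, Cry2, Nr1d2, Ciart, Dbp, Tef and Hlf) and 3 were lower (Arntl, Npas2 and Clock). With that library left out, 4.35% of all genes passed, and the list's median was 0.72, against 0.02 for all genes. Quantile normalization gave 3 higher and 0 lower, or 10 higher and 3 lower without that library. The germ cell term left 0, or 2 higher (Ciart and Tef) without that library, and 4 higher and 2 lower remained where control replicates 1 and 3 were both left out.

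Of the positive arm of the loop, Arntl passed with all libraries, and Arntl, Npas2 and Clock without control replicate 3, all lower in HFD+AOS-FMT. Arntl (chromosome 7, 113207465 to 113314126, plus strand, GRCm38), the BMAL1 gene, stood at 12.5, 10.1 and 2.71 in control replicates 1 to 3 and at 1.30, 1.86 and 1.96 in HFD+AOS-FMT. The groups did not overlap, but control replicate 3 lay close to the transplant values. Arntl fell by 1.61 (SE 0.39, adjusted p = 0.0461) with all libraries and by 2.18 (SE 0.29, adjusted p = 0.00222) without control replicate 3; the first call ended without any 1 of the other 5 libraries (adjusted p up to 0.128) and the second held without each of them. Npas2, a partner of BMAL1 that can stand in for Clock, was at 10.2, 6.71 and 1.60 in control and at 0.96, 1.24 and 1.11 in HFD+AOS-FMT. It fell by 2.15 (SE 0.25, adjusted p = 0.000544) without control replicate 3, against -1.53 (adjusted p = 0.0538) with it. Clock itself moved far less, from 7.43, 7.12 and 5.88 to 5.30, 6.18 and 4.83, and its -0.37 without control replicate 3 (adjusted p = 0.0379) was lost without control replicate 1 or 2 or HFD+AOS-FMT replicate 1 or 3 as well (adjusted p up to 0.25).

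Of the period and cryptochrome genes, the repressors of the loop, 4 rose without control replicate 3 and 0 passed with all libraries (limma). Per3 was at 0.50, 1.54 and 6.17 in control and at 5.94, 6.93 and 6.21 in HFD+AOS-FMT, and Per2 at 1.62, 3.86 and 7.53 against 7.20, 9.91 and 11.3. In both, control replicate 3 lay with the transplant libraries and the other controls below them. Per3 rose by 1.91 (SE 0.20, adjusted p = 0.000204) and Per2 by 1.53 (SE 0.23, adjusted p = 0.00355) without control replicate 3, against 1.29 (adjusted p = 0.084) and 1.11 (adjusted p = 0.0637) with it. Per1 had its highest value of the 6 in control replicate 3, at 19.0, against 2.39 and 2.54 in the other controls and 5.11, 7.17 and 6.41 in HFD+AOS-FMT. Its difference was 1.05 without that library (SE 0.21, adjusted p = 0.0135) and 0.21 with it (adjusted p = 0.853), and it was lost without control replicate 1 or 2 as well (adjusted p up to 0.128). Cry2 was alike, at 2.84, 2.72 and 9.29 against 5.23, 5.45 and 5.39, with 0.75 (SE 0.10, adjusted p = 0.00129) and 0.27 (adjusted p = 0.615). Cry1, at 3.84, 2.55 and 2.79 in control and 0.89, 1.42 and 2.68 in HFD+AOS-FMT, passed in neither fit (adjusted p = 0.101 and 0.0959).

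Ciart (chromosome 3, 95878503 to 95882251, minus strand), or CHRONO, another repressor of BMAL1, had the smallest p of the clock genes without control replicate 3 and did not pass with it. It stood at 0.33, 0.44 and 18.01 in control and at 8.13, 7.78 and 5.85 in HFD+AOS-FMT, so control replicate 3 was the highest of the 6 and the other controls the lowest. Its difference was 2.56 without control replicate 3 (SE 0.23, adjusted p = 7.56e-05), held without each of the other 5 libraries (adjusted p up to 0.0037), and was 1.30 (adjusted p = 0.325) with all libraries. Nr1d2, which encodes the repressor REV-ERB beta, was at 7.14, 10.4 and 30.4 against 29.3, 30.3 and 26.0, with 1.61 (SE 0.24, adjusted p = 0.00377) and 1.05 (adjusted p = 0.137). Its paralogue Nr1d1 was at 7.57, 12.3 and 40.2 against 39.1, 33.1 and 22.8 and passed in neither fit (adjusted p = 0.31 with all libraries and 0.0528 without control replicate 3).

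The PAR bZIP factors carry the clock's output to drug and hormone metabolism. Dbp (chromosome 7, 45705088 to 45710203, plus strand) was at 2.76, 6.90 and 90.6 in control and at 97.8, 68.4 and 63.8 in HFD+AOS-FMT. Control replicate 3 again lay among the transplant libraries, far above the other controls. The difference of 3.81 without it (SE 0.64, adjusted p = 0.00866) was the largest of the increases that passed, and with it the value was 2.45 (adjusted p = 0.148). Tef was at 40.6, 42.2 and 97.8 against 102, 93.6 and 97.1, with 1.21 (SE 0.12, adjusted p = 0.000131) and 0.81 (adjusted p = 0.0894). Hlf (chromosome 11, 90336536 to 90390895, minus strand) was the 1 clock gene that rose in both fits. It stood at 21.2, 23.2 and 24.6 in control and at 31.0, 33.2 and 32.6 in HFD+AOS-FMT with no overlap, a rise of 0.47 (SE 0.07, adjusted p = 0.00776) with all libraries and 0.52 (SE 0.08, adjusted p = 0.00256) without control replicate 3. Nfil3, which binds the D-box as a repressor, was at 10.48, 9.07 and 3.04 against 2.31, 4.34 and 4.01 and did not pass (adjusted p = 0.311 and 0.0959). Rora and Bhlhe40 did not pass either (adjusted p of 0.117 to 0.295), and Bhlhe41, at 0.38 to 0.82 in HFD+AOS-FMT and 0.18 to 2.63 in control, was too low to test. Without control replicate 3, the calls of Per2, Nr1d2, Dbp and Hlf ended where control replicate 1 was left out as well (adjusted p up to 0.112).

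**Figure D2:**
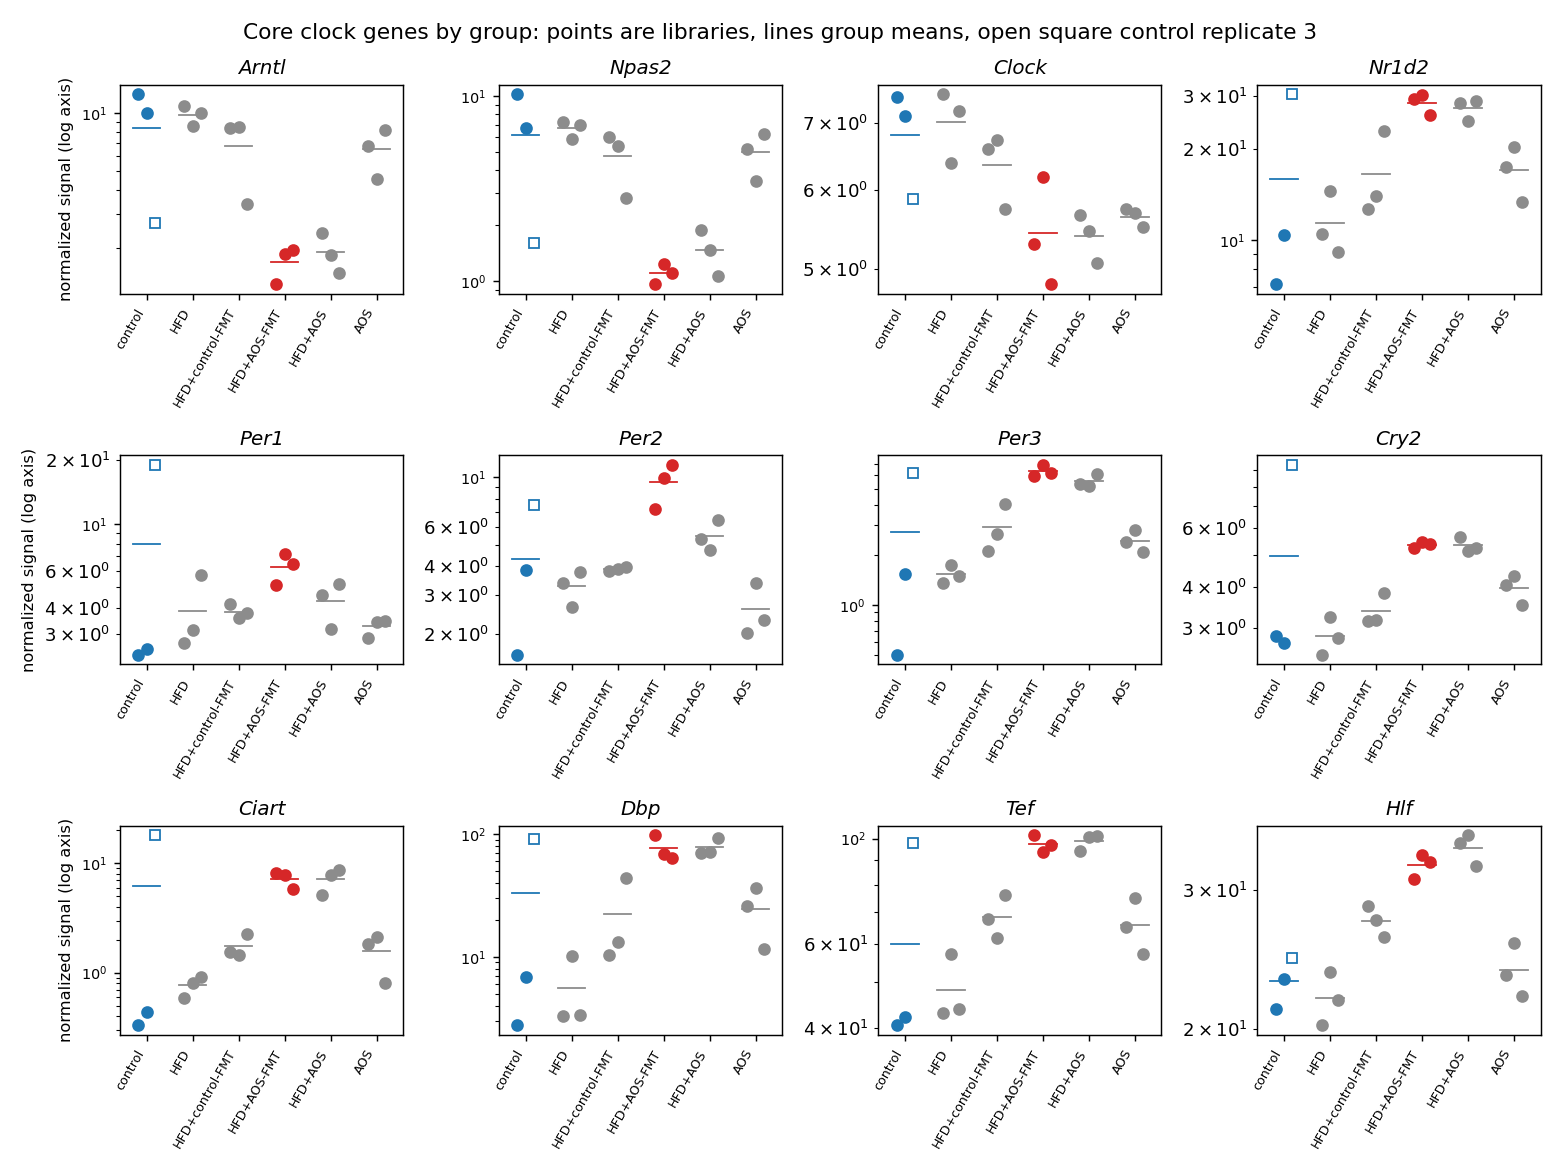
Normalized signal (log axis) by group in all 18 libraries, for the 12 clock genes that passed without control replicate 3. HFD+AOS-FMT is in red, control in blue and the other groups in grey, with lines at group means. The open square is control replicate 3, which lies near HFD+AOS-FMT for Arntl, Npas2, Nr1d2, Per3, Dbp and Tef and above it for Per1, Cry2 and Ciart. Control replicates 1 and 2 do not overlap HFD+AOS-FMT in any panel, which the choice of genes that passed favours. Of all 18 clock genes tested, 16 did not overlap without control replicate 3, against 33.4% of all genes.

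Genes that the clock or glucocorticoids are known to drive gave 1 higher and 1 lower of 12 (median 0.27). Without control replicate 3 they gave 5 higher and 1 lower (median 0.60). Per1, a gene of the loop itself and already counted with it, was 1 of those 5. The shares of all genes that passed in those fits were 2.32% and 4.35%. Por, the reductase that feeds electrons to cytochromes P450, was at 126, 147 and 152 in control and at 221, 208 and 199 in HFD+AOS-FMT with no overlap. It rose by 0.56 (SE 0.10, adjusted p = 0.0141) with all libraries, a call that ended without HFD+AOS-FMT replicate 1 (adjusted p = 0.058), and by 0.62 (adjusted p = 0.0066) without control replicate 3. Wee1, a kinase that delays mitosis, was at 2.44, 2.46 and 8.28 against 4.63, 6.77 and 6.73, and Usp2, a deubiquitinase, at 30.1, 38.9 and 54.0 against 50.6, 52.5 and 57.7. Both passed only without control replicate 3, with 1.01 (adjusted p = 0.00222) and 0.63 (adjusted p = 0.00578), as did Per1 and Lpin1, a phosphatidate phosphatase (0.58, adjusted p = 0.0186). The list summed to 471 to 477 in HFD+AOS-FMT, 361 and 386 in control replicates 1 and 2 and 1046 in control replicate 3, the library with adrenal transcripts, whose part in these values was not tested. Cdkn1a, the p21 inhibitor of the cell cycle, was the member that fell. It stood at 14.9, 7.11 and 82.6 in control and at 2.70, 4.78 and 2.81 in HFD+AOS-FMT, and fell by 2.35 (SE 0.56, adjusted p = 0.0439) with all libraries and by 1.39 (SE 0.28, adjusted p = 0.0155) without control replicate 3, lost with all libraries without control replicate 1 or any HFD+AOS-FMT library (adjusted p up to 0.138).

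Ppard had the smallest p among the genes described once control replicate 3 was left out. Ppard (chromosome 17, 28232700 to 28301474, plus strand) encodes PPAR delta, a nuclear receptor for fatty acids. It stood at 54.7, 61.6 and 9.47 in control and at 5.79, 7.45 and 6.07 in HFD+AOS-FMT. All 3 transplant libraries were below the lowest control library, which was replicate 3, as the choice of the largest decreases required. The fall was 3.00 (SE 0.22, adjusted p = 3.73e-05) without that library, where it held without each of the other 5 (adjusted p up to 0.000973), and 2.16 (SE 0.48, adjusted p = 0.0334) with all libraries, where it ended without any 1 of those 5 (adjusted p up to 0.108). Ppara (chromosome 15, 85734983 to 85802819, plus strand), the receptor that drives fatty acid oxidation, was at 8.90, 10.96 and 12.1 in control and at 16.3, 18.04 and 16.9 in HFD+AOS-FMT and rose by 0.64 (SE 0.11, adjusted p = 0.0127).

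Other lipid genes moved singly, and 2.32% of all genes passed with all libraries (4.35% without control replicate 3). Of 29 genes of fatty acid oxidation and PPAR alpha targets, Ppara was the 1 that passed in either fit, and the list's median was -0.01 (0.02 with quantile normalization). Cyp4a14, a classical PPAR alpha target, was at 2.41, 1.97 and 1.97 in HFD+AOS-FMT and at 8.56, 2.42 and 227 in control and did not pass (adjusted p = 0.157). Of 18 genes of fatty acid synthesis 1 rose and 1 fell. Scd1 (chromosome 19, 44394455 to 44407879, minus strand), the desaturase that makes oleate, was at 82.10, 56.02 and 27.82 in control and at 10.13, 27.81 and 15.79 in HFD+AOS-FMT, where replicate 2 lay just under control replicate 3. It fell by 1.55 (SE 0.35, adjusted p = 0.0364) with all libraries and by 1.97 (SE 0.33, adjusted p = 0.00713) without control replicate 3. Dgat2, which makes triglyceride, went from 77.4, 72.1 and 69.9 to 88.5, 90.7 and 94.6, a rise of 0.32 (SE 0.07, adjusted p = 0.0351). The cholesterol list of 27 had Cyp51 higher and Fdps and Msmo1 lower, all 3 enzymes of sterol synthesis. Cyp51 went from 85.7, 82.3 and 53.7 to 120.1, 102 and 126, a rise of 0.67 (adjusted p = 0.033). Fdps fell by 0.68 (adjusted p = 0.0386) and Msmo1 by 0.61 (adjusted p = 0.0426), and neither passed without control replicate 3 (adjusted p = 0.0701 and 0.0767), where the cholesterol exporter Abca1 was higher (0.73, adjusted p = 0.0162). The Scd1, Dgat2, Cyp51, Fdps and Msmo1 calls with all libraries each ended without HFD+AOS-FMT replicate 1, among others (adjusted p up to 0.158).

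Other large decreases lay in a hydroxylase, in an amine enzyme and in single stress genes. Cyp4a12b (chromosome 4, 115411624 to 115439034, plus strand), an androgen-dependent fatty acid hydroxylase of the male kidney, was at 7.83, 6.40 and 10.9 in control and at 1.53, 2.39 and 1.85 in HFD+AOS-FMT, a fall of 1.66 (SE 0.23, adjusted p = 0.0055). Reads of its close relative Cyp4a12a may be shared with it. Of 10 androgen-responsive genes it was the 1 that passed, against 2.32% of all genes with all libraries. Their sum was 125660.0 to 172043 in HFD+AOS-FMT, 158024 and 152346 in control replicates 1 and 2 and 17465 in control replicate 3, so control replicate 3 was low in the androgen-driven Kap that makes up most of it. The list's median difference was 0.83, or -0.05 without that library. Ddx3y, of the Y chromosome, was present in all 6 libraries, at 10.46, 11.03 and 7.32 in control and 10.8, 13.2 and 11.6 in HFD+AOS-FMT. Ddc (chromosome 11, 11814101 to 11898144, minus strand), which turns L-DOPA into dopamine in the proximal tubule, was at 35.4, 36.2 and 47.0 in control and at 21.2, 18.9 and 12.5 in HFD+AOS-FMT. It fell by 1.15 (SE 0.16, adjusted p = 0.0055), and the groups did not overlap. The calls of Cyp4a12b and Ddc ended where control replicates 1 and 3 were both left out (adjusted p up to 0.0849). Ddc belongs to a list of 14 genes of tryptophan, lysine and monoamine metabolism, in which without control replicate 3 Acmsd, which steers tryptophan away from NAD synthesis, was lower as well (-0.92, adjusted p = 0.0197).

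Ndrg1 (chromosome 15, 66929318 to 66969640, minus strand), a hypoxia-inducible stress gene, was at 1882, 1492 and 1381 in control and at 720.5, 799.9 and 993 in HFD+AOS-FMT. It fell by 0.92 (SE 0.16, adjusted p = 0.0122) with all libraries and by 1.01 (adjusted p = 0.0062) without control replicate 3, and missed the threshold where HFD+AOS-FMT replicate 1 was left out (adjusted p = 0.0506). Of the 20 hypoxia-inducible genes it was the 1 that passed with all libraries, and Car9, at 3.53, 3.08 and 5.91 against 2.29, 2.15 and 2.73 in control, and Vegfa, at 80.1, 81.3 and 79.0 against 52.4, 74.2 and 61.0, did not pass (adjusted p = 0.173 and 0.147). Without control replicate 3 Bnip3, a mitophagy gene, was higher (0.35, adjusted p = 0.00713). Across all genes, 2.32% passed with all libraries and 4.35% without control replicate 3. Among 37 drug metabolism genes 2 fell. Gsta3, a glutathione transferase, went from 26.7, 29.1 and 81.4 to 14.0, 13.6 and 14.5, a fall of 1.45 (adjusted p = 0.0238), or 0.94 (adjusted p = 0.00507) without control replicate 3, where its size was over 1.5 times smaller. Sult1d1, a sulfotransferase, fell by 0.45 (adjusted p = 0.0377) but not without that library (adjusted p = 0.0592), where the monooxygenase Fmo2 was higher (0.56, adjusted p = 0.00523). C3, the central complement protein, was at 29.1, 20.7 and 110.1 against 10.8, 9.57 and 7.93, and its fall of 2.01 (adjusted p = 0.0499) ended without control replicate 3 (-1.30, adjusted p = 0.0877), as did that of Reep6 (adjusted p = 0.0429 and 0.0742). Fxyd6, of a family of sodium pump regulators, fell in both fits (adjusted p = 0.0481 and 0.0388). The calls of Gsta3, Sult1d1, C3, Reep6 and Fxyd6 with all libraries each ended without any 1 HFD+AOS-FMT library (adjusted p up to 0.157).

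The genes that rose most included enzymes of the tubule. Nat8f6 (chromosome 6, 85808024 to 85820954, minus strand), of the Nat8 family of acetyltransferases, was at 84.5, 85.5 and 52.6 in control and at 197, 172 and 189 in HFD+AOS-FMT. It rose by 1.35 (SE 0.18, adjusted p = 0.0055), or by 1.12 (SE 0.15, adjusted p = 0.00217) without control replicate 3, and passed without each library in turn in both fits. Nudt19 (chromosome 7, 35547185 to 35556304, minus strand), a peroxisomal hydrolase of coenzyme A, was at 326, 284 and 160.5 against 516, 855 and 833. Its rise of 1.54 (SE 0.28, adjusted p = 0.0135) ended without HFD+AOS-FMT replicate 2 or 3 (adjusted p up to 0.0616). In both genes every transplant library lay above every control library, as the choice of the largest increases required. Zfp990, a zinc finger gene of a repeated family whose reads may be shared, was at 3.65, 3.46 and 1.68 against 9.72, 8.25 and 7.25 and rose by 1.29 (SE 0.18, adjusted p = 0.0055).

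Secreted proteins were among the increases. Pzp, a protease inhibitor, was at 41.2, 46.3 and 10.7 in control and at 117, 74.2 and 84.0 in HFD+AOS-FMT and rose by 1.67 (adjusted p = 0.0334), or by 1.03 (adjusted p = 0.00536) without control replicate 3, its lowest library. C8a, of the membrane attack complex, went from 7.82, 8.60 and 5.88 to 15.5, 13.9 and 15.5, a rise of 0.93 (SE 0.15, adjusted p = 0.00864). Rarres2 (chemerin) was at 51.3, 52.8 and 41.9 against 92.2, 160.1 and 154, and its rise of 1.42 (adjusted p = 0.0366) ended without control replicate 3 (1.32, adjusted p = 0.0805). Enpp2 (autotaxin) was at 137, 59.3 and 108 against 170.4, 196 and 195 and Olfm4 at 11.2, 6.56 and 12.7 against 23.2, 19.4 and 23.9; they rose by 0.96 (adjusted p = 0.0339) and 1.09 (adjusted p = 0.0128), with control replicate 2 lowest in both. Col27a1, a fibrillar collagen, was at 9.73, 9.37 and 9.92 against 16.9, 16.2 and 32.1 and rose by 1.02 (SE 0.20, adjusted p = 0.0184), with HFD+AOS-FMT replicate 3 standing highest. The Pzp, Enpp2 and Olfm4 calls each ended without HFD+AOS-FMT replicate 1 or 3 (adjusted p up to 0.117).

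Other genes among the 15 largest increases had single roles. Bcl6, a transcriptional repressor, was at 6.75, 16.5 and 4.52 in control and at 27.0, 25.4 and 28.4 in HFD+AOS-FMT, and its rise of 1.62 (adjusted p = 0.0456) ended without control replicate 3 (1.26, adjusted p = 0.116). The noncoding RNA Snhg11 was at 1.08, 2.46 and 2.66 against 14.9, 9.05 and 7.33 and rose by 1.89 (SE 0.39, adjusted p = 0.0261). The potassium channel gene Kcnk5 went from 36.9, 51.8 and 29.0 to 56.6, 79.2 and 68.4 (0.81, adjusted p = 0.0265), and the transglutaminase Tgm1 rose by 0.90 (adjusted p = 0.0281). Sorcs1, a sorting receptor, was low at 1.26, 0.92 and 0.32 against 2.36, 1.80 and 2.66, as was Lipo2, at 1.04, 1.27 and 0.31 against 2.59, 1.79 and 2.47 (adjusted p = 0.033 and 0.0377; Lipo2 0.0566 without control replicate 3). The Bcl6, Snhg11, Kcnk5, Sorcs1 and Lipo2 calls each ended without HFD+AOS-FMT replicate 2, among others (adjusted p up to 0.138).

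Some genes reached the largest changes only without control replicate 3. Pck1, the gate of gluconeogenesis, was at 524, 491 and 1011 in control and at 1055, 1013 and 1379 in HFD+AOS-FMT, with 1.16 (adjusted p = 0.00911) against 0.83 (adjusted p = 0.0934) with all libraries. The carbonic anhydrase Car14 was at 55.7, 63.6 and 149 against 115, 129 and 132, with 1.06 (adjusted p = 0.000131) against 0.63 (adjusted p = 0.183). Cpeb3, an RNA-binding protein, and Mogat2, an acyltransferase, were higher by 1.41 (adjusted p = 0.00041) and 1.14 (adjusted p = 0.0348). In the other direction, Slc16a14, of the monocarboxylate transporter family, was at 30.8, 33.7 and 3.23 in control, with replicate 3 lowest of all, and at 9.91, 16.6 and 13.7 in HFD+AOS-FMT (-1.23, adjusted p = 0.00517, and -0.24, adjusted p = 0.85). The lactate and butyrate transporter Slc16a1 fell by 1.05 (adjusted p = 0.0349). Palm3 fell in both fits (adjusted p = 0.021 and 0.00517).

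**Figure D3:**
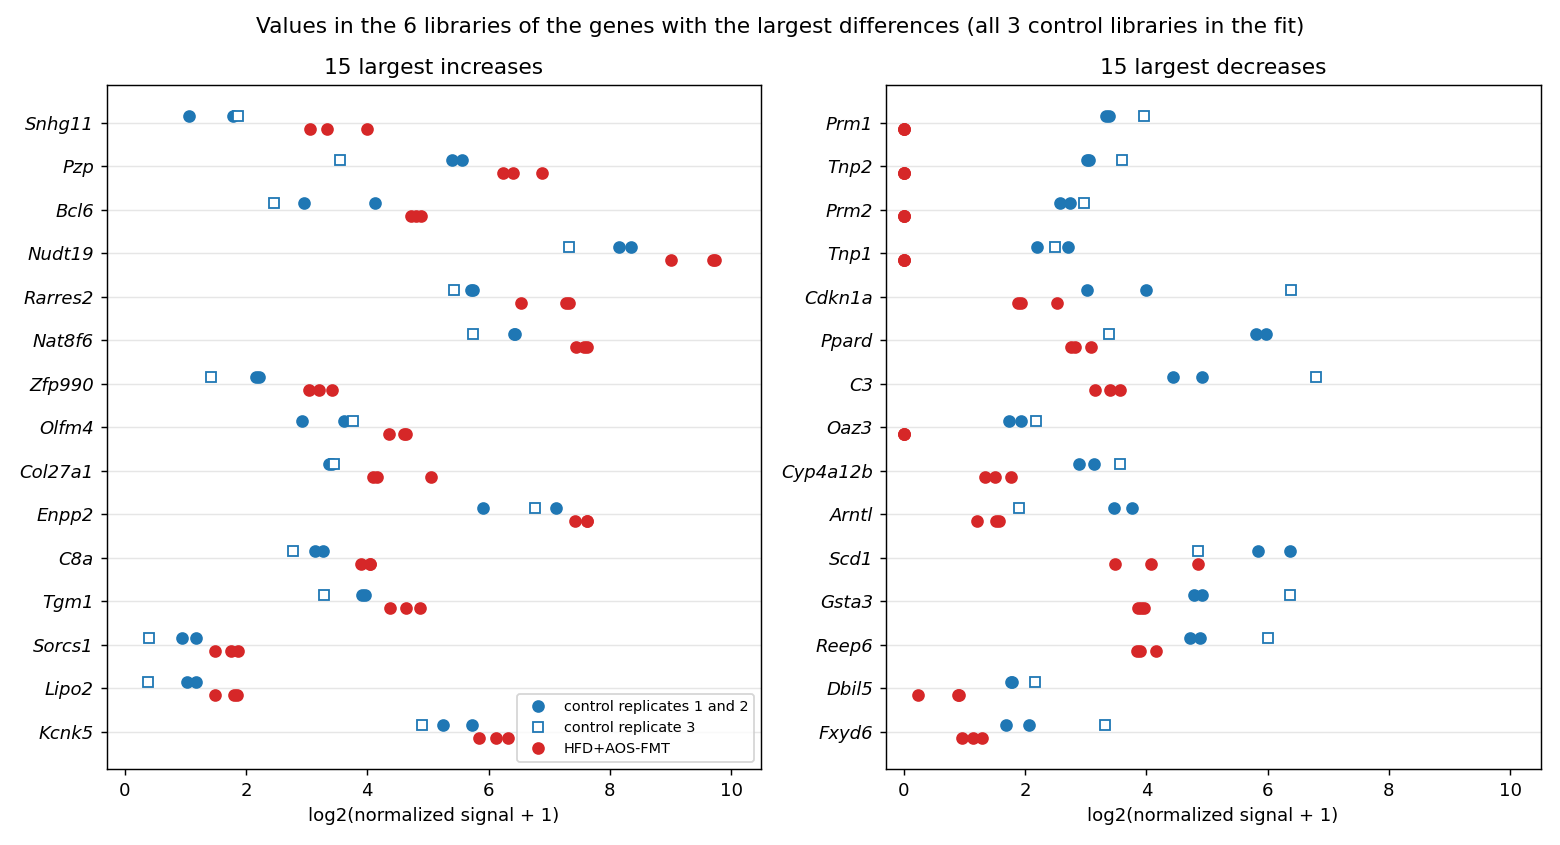
Values on the log2(normalized signal + 1) scale of the 15 largest increases and 15 largest decreases with all 3 control libraries, 1 point per library, HFD+AOS-FMT in red and control in blue with control replicate 3 as an open square. The groups are separate for each gene because that was a condition of choice, which 16% of all genes met. The gap is least for Scd1, and for Prm1, Prm2, Tnp1, Tnp2 and Oaz3 all 3 HFD+AOS-FMT libraries lie at 0.

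Nephron segment lists gave few calls, where 2.32% of all genes passed with all libraries and 4.35% without control replicate 3. In the proximal tubule 1 of 23 transport genes passed, Slc27a2, which takes up very long chain fatty acids. It was at 1422, 1365 and 1090.4 in control and at 1710.4, 1662 and 1618 in HFD+AOS-FMT, a rise of 0.37 (adjusted p = 0.0416) that ended without any 1 HFD+AOS-FMT library (adjusted p up to 0.119) and with quantile normalization, which left 0 of the 23. Slc7a9, a cystine transporter subunit, joined it without control replicate 3 (0.37, adjusted p = 0.0243). Among 19 loop of Henle and distal tubule genes, Klk1 (chromosome 7, 44225360 to 44229618, plus strand), the tissue kallikrein, went from 1774, 1517 and 2074 to 1067, 1092 and 1138, a fall of 0.69 (SE 0.12, adjusted p = 0.0108). That list had 3 of 19 differences above 0 and a median of -0.32, or -0.09 without control replicate 3, and 7 and 4 of the 19 had an unadjusted p under 0.05. Its summed level was 9423 to 9777 in HFD+AOS-FMT and 10682 to 11808 in control, with no overlap. By limma 0 genes passed in either fit among 10 of the collecting duct, 11 of the intercalated cell, 12 of the podocyte and 9 of the endothelium, whose medians of -0.29, -0.21, -0.26 and -0.19 became 0.08, 0.01, 0.20 and 0.05 without control replicate 3. At an unadjusted p under 0.05 these lists had 4, 2, 2 and 0 genes with all libraries and 3, 1, 3 and 0 without control replicate 3, against 19% and 19.9% of all genes. In the renin-angiotensin system 0 of 10 passed by limma with all libraries (1 at an unadjusted p under 0.05).

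Of 52 oxidative phosphorylation genes 5 fell and 0 rose (median -0.15), or 3 fell without control replicate 3 (median -0.07). Among all genes, 2.32% and 4.35% passed in those fits, with 1.33% and 1.73% lower. Quantile normalization gave 4 lower and 1 higher in this list. Atp5e (chromosome 2, 174461072 to 174464105, minus strand), the epsilon subunit of ATP synthase, was at 528, 395 and 588 in control and at 213, 204 and 294 in HFD+AOS-FMT, a fall of 1.08 (SE 0.18, adjusted p = 0.00964). Atp5k fell by 0.51 (adjusted p = 0.0268), Ndufb7 by 0.42 (adjusted p = 0.0386), Atp5g1 by 0.42 (adjusted p = 0.0454) and Ndufa2 by 0.40 (adjusted p = 0.0416). Ndufb7 and Ndufa2 did not pass without control replicate 3 (adjusted p = 0.0502 and 0.0506). In glycolysis and gluconeogenesis Aldoa, an aldolase, was the 1 of 24 that passed with all libraries, from 899, 844 and 1028 to 724, 723 and 757 (-0.33, adjusted p = 0.0213, lost without any 1 HFD+AOS-FMT library with adjusted p up to 0.0739). Pck1, Fbp1 (0.31, adjusted p = 0.0341) and Pklr (0.46, adjusted p = 0.0349) were higher without control replicate 3. The aldose reductase Akr1b3 (chromosome 6, 34302434 to 34317478, minus strand), which makes the osmolyte sorbitol, was at 76.1, 79.5 and 74.8 in control and at 126, 142 and 121 in HFD+AOS-FMT. It rose by 0.75 (SE 0.12, adjusted p = 0.0088), the 1 of 9 osmolyte genes that passed with all libraries.

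Of 18 heat shock genes 1 passed with all libraries, where 2.32% of all genes passed (4.35% without control replicate 3). Hspa8, the constitutive HSC70 chaperone, went from 821, 1519.5 and 1011 to 1651, 1823 and 1816, a rise of 0.70 (adjusted p = 0.048) that ended without that library (adjusted p = 0.0794), where the chaperones Fkbp4 (-0.47, adjusted p = 0.0159) and Hspa4l (-0.44, adjusted p = 0.0304) were lower. In the unfolded protein response 0 of 25 passed by limma with all libraries. At an unadjusted p under 0.05 that list had 2 genes, or 11 without control replicate 3, against 19% and 19.9% of all genes. Without control replicate 3 Herpud1, which serves degradation at the endoplasmic reticulum, was higher, at 81.7 and 101 in control and 160.0, 188 and 164 in HFD+AOS-FMT (0.90, adjusted p = 0.000204), and the chaperones Calr (-0.48, adjusted p = 0.00338) and Pdia6 (-0.34, adjusted p = 0.0256) were lower. Control replicate 3 held Herpud1 at 184 and Calr at 389, on the far side of HFD+AOS-FMT replicates 1 and 3 from the other controls. Slc25a37, the mitochondrial iron importer, rose in both fits by 0.32 (adjusted p = 0.0349) and 0.38 (adjusted p = 0.00983). Aco1, whose protein senses iron, was higher (0.28, adjusted p = 0.0186) and the transferrin receptor Tfrc lower (-0.53, adjusted p = 0.0111) without control replicate 3. By limma 0 of 25 antioxidant and 0 of 20 immediate early genes passed in either fit, with 11 and 0 at an unadjusted p under 0.05 with all libraries and 6 and 0 without control replicate 3 (against 19% and 19.9% of all genes). Of 13 genes of bile acid and microbial metabolite sensing 0 passed with all libraries (3 unadjusted), and without control replicate 3 the conjugate exporter Abcc2 was higher (0.44, adjusted p = 0.017) and Slc16a1 lower.

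Injury, matrix and immune genes gave few calls, where 2.32% of all genes passed (4.35% without control replicate 3). Cdkn1a was the 1 of 12 tubule injury genes that passed, and Spp1 (osteopontin), at 224, 321 and 206 against 307, 604 and 2434 in control, did not (adjusted p = 0.108). Of 32 matrix and fibroblast genes 2 fell, Npnt, a basement membrane ligand of integrins, and Col6a2, a collagen chain (-0.70, adjusted p = 0.0463). Npnt was at 35.5, 42.0 and 41.2 in control and at 25.4, 30.2 and 23.5 in HFD+AOS-FMT, a fall of 0.57 (SE 0.10, adjusted p = 0.0135). The list's median was -0.42, or -0.23 without control replicate 3, where Npnt and Col4a4 (-0.41, adjusted p = 0.0253) were lower and Lama5 (0.47, adjusted p = 0.017) higher. In the macrophage list 0 of 16 differences were above 0 and the median was -0.57, or 1 of 16 and -0.34 without control replicate 3, against -0.06 and 0.02 for all genes. Lyz1, a lysozyme, was the 1 that passed, from 3.67, 3.93 and 6.5 to 2.05, 2.84 and 1.78 (-0.80, adjusted p = 0.0339). Lyz2, a near copy of it, at 28.1, 36.6 and 20.4 against 45.02, 44.7 and 83.2 in control, did not pass (adjusted p = 0.0655), nor did the complement gene C1qb, at 11.7, 13.7 and 10.7 against 23.8, 19.2 and 36.3 (adjusted p = 0.0541). The Npnt and Lyz1 calls each ended without HFD+AOS-FMT replicate 1 or 3 (adjusted p up to 0.136). The 19 macrophage genes in the table, none at 0, summed to 117 to 140.2 in HFD+AOS-FMT and 164 to 322 in control. By limma 0 genes passed in either fit among 14 inflammatory mediators, 6 lymphocyte, 7 class II, 25 interferon-stimulated and 11 cell cycle genes. At an unadjusted p under 0.05 these had 1, 0, 1, 1 and 2 genes with all libraries and 0, 0, 0, 0 and 2 without control replicate 3, against 19% and 19.9% of all genes. The tubule injury, matrix and macrophage lists had 4 of 12, 15 of 32 and 10 of 16 at that level with all libraries. Without control replicate 3 they had 3, 11 and 5.

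**Figure D4:**
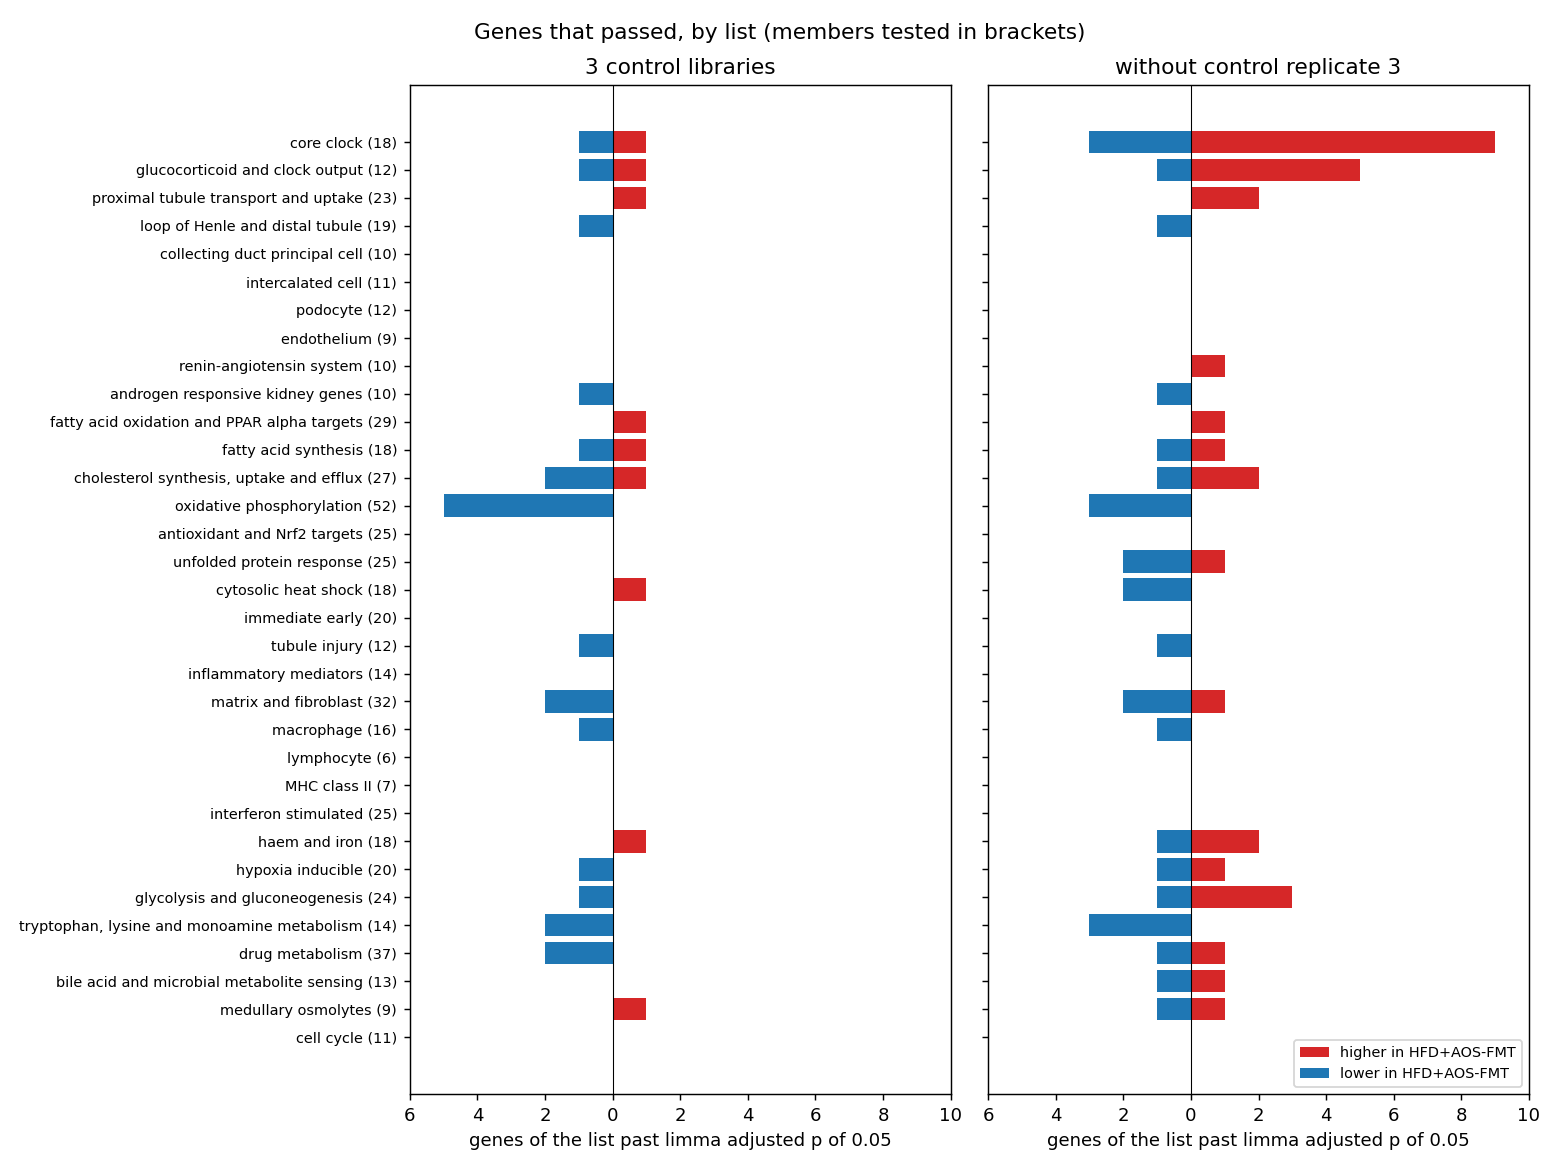
Number of genes past a limma adjusted p of 0.05 in each of the pathway and cell type lists, higher in HFD+AOS-FMT to the right and lower to the left of 0, with 3 control libraries and without control replicate 3, and the number of genes tested in brackets. The core clock goes from 1 higher and 1 lower to 9 higher and 3 lower, and every other list plotted holds at most 5 in either direction.

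Among transcripts of other tissues, those of testis germ cells separated the groups as well. Of 10 germ cell genes tested 8 fell in both fits, where 1.33% and 1.73% of all genes were lower. Prm1, Prm2, Tnp1, Tnp2, Oaz3, Ldhc, Crisp2 and Tcp11 reached the filter value of 1 only in control and HFD libraries. They were tested because those libraries were high, so the shares of all genes are no fair measure for them. Prm1 was at 9.07, 9.44 and 14.5 in control and at 0 in all 3 libraries of HFD+AOS-FMT, so its fitted -3.56 (adjusted p = 0.00864) carries no fold. Dbil5, known from testis, was at 2.42, 2.46 and 3.47 in control and at 0.87, 0.17 and 0.86 in HFD+AOS-FMT, and its fall of 1.23 (adjusted p = 0.0395) ended without control replicate 3 (adjusted p = 0.0701). In each HFD+AOS-FMT library 13 to 14 of the 19 germ cell genes were at 0, against 0 in each control library, and the sums were 25.0 to 28.1 against 67.5 to 71.6. Smcp, present in all 18 libraries, made up most of the HFD+AOS-FMT sums, at 22.94, 25.11 and 26.96, against 30.23, 33.56 and 14.25 in control. White fat genes varied within both groups, with sums of 138 to 370.1 against 164 to 579, as did brown fat genes, with 103 to 231 against 75.0 to 106. Ucp1, the uncoupling protein of brown fat, was at 20.3, 62.5 and 12.3 in HFD+AOS-FMT and at 1.03, 8.18 and 0.72 in control and did not pass (adjusted p = 0.221). Cela1, of the pancreas list, went from 88.5, 73.9 and 114 to 50.6, 50.8 and 46.3, a fall of 0.87 (adjusted p = 0.033) that ended without control replicate 3 (adjusted p = 0.0657). The other pancreas genes, Prss2, Cpa1, Pnlip and Ctrb1, were at 0.43 or less in all 6 libraries, while Cela1 was at 46.26 or more in all 18. Its fall is therefore no measure of pancreas tissue. The part of other tissues in the differences of kidney genes was not tested.

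Set against HFD alone, which has the diet in common, 21 genes (0.175%) passed; HFD+AOS-FMT had 12 higher and 9 lower. Hlf, at 20.2, 23.7 and 21.8 in HFD, was higher by 0.54 (SE 0.07, adjusted p = 0.0244). Ndrg1, at 1787, 1624 and 1795 in HFD, was lower by 1.06 (SE 0.16, adjusted p = 0.0244), and Ddc, at 35.1, 29.3 and 36.0, by 0.92 (adjusted p = 0.0436). For these 3 genes the HFD libraries lay near the control libraries. Npnt, Palm3 and Slc25a37 also passed (adjusted p = 0.0489 for each). The haem oxygenase gene Hmox1 was lower than in HFD, at 27.9, 26.1 and 28.8 against 53.5, 44.1 and 53.5 (adjusted p = 0.0244), and did not pass against control (adjusted p = 0.0972). The count fell to 0 without any 1 HFD+AOS-FMT library or HFD replicate 1, and to 4 and 10 without HFD replicates 2 and 3. HFD replicates 1 and 2 also held germ cell transcripts, with sums of 25.15 and 24.81 over the 4 sperm genes, and HFD replicate 3 did not.

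Other genes were arranged differently. Cyp4a12b was at 3.46, 2.00 and 3.22 in HFD, Klk1 at 1036, 1166 and 1249.9 and Akr1b3 at 121, 105 and 134, values near those of HFD+AOS-FMT. The differences from HFD were -0.40 for Cyp4a12b (SE 0.23, adjusted p = 0.488), -0.06 for Klk1 (SE 0.12, adjusted p = 0.855) and 0.11 for Akr1b3 (SE 0.12, adjusted p = 0.731). A p above the threshold does not show that these groups were equal. Nat8f6, at 104, 98.6 and 100.2 in HFD, lay between the groups and did not pass (0.87, adjusted p = 0.068).

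Against HFD+control-FMT, which has the diet and a transplant in common, 0 of 12030 genes passed by limma, with 845 at an unadjusted p under 0.05. Leaving out control replicate 3, which enters that fit only through the shared spread, gave 14 genes (0.116%), and 585 (4.86%) for the comparison with HFD. The clock genes Ciart, Npas2 and Cry2, the clock outputs Wee1 and Usp2, and Ddc were among the 14. Ciart was at 1.54, 1.45 and 2.24 in HFD+control-FMT, and its difference of 1.59 had adjusted p = 0.0158 without control replicate 3 and 0.691 with it. Npas2, at 6, 5.41 and 2.83, differed by -1.40 (adjusted p = 0.0303 and 0.5), and Cry2, at 3.15, 3.17 and 3.84, by 0.54 (adjusted p = 0.0303 and 0.717). Ddc, at 28.7, 38.0 and 32.4, differed by -0.90 (adjusted p = 0.0383 and 0.203). Arntl, at 8.42, 8.51 and 3.39, did not pass (-1.45, adjusted p = 0.0514 and 0.5), nor did Ppard, at 19.5, 14.5 and 11.4 (-1.09, adjusted p = 0.0514 and 0.695). For Ciart, Npas2, Cry2, Arntl and Ppard, HFD+control-FMT replicate 3 was the library of its group nearest to HFD+AOS-FMT. The comparisons with control, HFD and HFD+control-FMT share the HFD+AOS-FMT libraries, so their values are given side by side only.

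Clock levels in the remaining groups are given as a description, without a test. The 19 clock genes summed to 360.2 to 404 in HFD+AOS-FMT, 363 to 400.3 in HFD mice given AOS without a transplant (HFD+AOS), 242 to 294 in HFD+control-FMT, 205 to 220.5 in HFD and 203 to 273 in mice labelled with AOS alone. In control they summed to 184, 199.6 and 428, so control replicate 3 was the highest of the 18 libraries. Dbp was at 69.7, 72.3 and 92.9 in HFD+AOS and at 26.0, 36.5 and 11.5 with AOS alone, and Arntl at 2.41, 1.84 and 1.48 and 6.75, 4.59 and 8.24.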

How the data were processed

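Total RNA of mouse kidney had been sequenced in 18 libraries, 3 in each of 6 groups. The authors deposited a table of normalized signal per gene symbol, 1 column per library. Bowtie 0.12.2 and the mm10 build are named in the submitters' processing notes; for the deposited signal, its counting, annotation and normalization were not given in the sources used here. Column sums varied by 3.501% (coefficient of variation), and by 0.815% when each value was multiplied by transcript length, so a level per length is likely but not stated. Of 27 genes' low values, 85.2% lay within 0.2 of a whole multiple of a step, which gave the relative depths; read totals are unknown.

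Of 19545 entries, 26 symbols turned into dates and 2 entries of a repeated symbol were left out, leaving 19517 symbols, 97.3% of them in GENCODE M21, which gave coordinates on GRCm38 (mm10). The 12030 genes that reached 1 in 3 libraries or more were tested on log2(value + 1) with limma 3.58.1 in R 4.3.3 (trend and robust estimation, two-sided, Benjamini-Hochberg adjustment over all genes tested, threshold 0.05). The fit held all 18 libraries in 6 groups (12 residual degrees of freedom), and was repeated without control replicate 3 (11). The procedure was tested on simulated data. Described genes were the 15 largest increases and decreases in each fit among genes that passed, did not overlap between groups and had a mean of at least 1, up to 4 per list with the smallest p, and every clock gene; members named to complete a count, the genes named against HFD and HFD+control-FMT, and Rnls were chosen after their values were seen. Some genes are not reported here. The comparison and the gene lists were chosen with earlier results of these data known. Promoters came from RefSeq (GRCm38.p6).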

Additional observations from a re-analysis of the deposited data

How the results depend on the processing

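Against control, 279 genes passed. The count was 488 with no filter on low values (134 higher, 354 lower), 516 with array weights, 5 when the 2 groups were fitted alone, 1 with the germ cell term (an alternative chosen after seeing the data) and 61 to 785 when each library was left out in turn; quantile normalization (395), a pseudocount of 0.1 (259), a mean of at least 5 (284) and no trend (242) stayed within 1.5 times. Without control replicate 3, 523 became 128 for the groups alone, 11 with the germ cell term and 42 to 410 with a further library left out. Against HFD, 21 became 9 with quantile normalization, 13 without trend, 166 for the groups alone, 641 with array weights, 1 with the germ cell term and 0 to 585 with each library left out. Against HFD+control-FMT, 0 became 1 for the groups alone, 18 with array weights and 0 to 14 with each library left out. With the germ cell term Prm2 changed sign, to 0.028 with all libraries and 0.13 without control replicate 3. The cause of these changes was not tested. The planned germ cell split by the sum of the whole list could not be fitted, since every library reached the sum of 10. Smcp alone was at 11.68 or more in each. Where a group is left with 1 library, that library is assumed to vary like the other groups. Read totals are unknown, so an interval for counting error cannot be given, and low values are the least certain.

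Replicate numbers gave no clear pairing: same-numbered HFD+AOS-FMT and control libraries deviated together at r = 0.19, 0.0263 and -0.0963, and not every library correlated best with its own number. The outlying control replicate 3 enters every control deviation through the group mean, so this check cannot exclude pairing. A replicate block gave 180 genes against control, 392 without control replicate 3, 15 against HFD and 0 against HFD+control-FMT.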
